A study of Danio rerio with 2 samples.

Results

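Coarse cluster 2 is one of 8 groups into which the authors divided single cells of zebrafish tails, sorted at 20 hours post fertilisation for the fluorescence of an npas4l reporter. Its members are the cells whose coarse Leiden number is 2 in the deposited table that carries the velocity scores. There were 1812 such cells among 10469 in all, namely 1469 of 5262 cells of the mutant library and 343 of 5207 cells of the heterozygous library. The mutant embryos were trans-heterozygous, with the bns423 allele on one chromosome and the bns297 allele on the other (npas4lbns423/bns297). The heterozygous embryos carried bns423 beside a wild-type copy (npas4lbns423/+), so both groups share the bns423 allele. The labels put the number of embryos at about 150, without saying whether per genotype, and the reporter construct is not described in them. Embryos were pooled, each genotype was loaded on 1 droplet lane and gave 1 library, and 5000 cells per library were aimed for. Cells are not replicates, so no test between genotypes can be made, and every interval below is a 95% interval that covers counting error over cells only.

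Npas4l, encoded by the cloche locus, is a bHLH-PAS transcription factor that acts at the top of the programme by which mesoderm of the zebrafish embryo gives rise to endothelial and blood cells. It switches on the genes of further transcription factors of that programme, among them etv2, tal1 and lmo2. A reporter for npas4l marks cells that have activated the locus, also where the protein they make does not work, so sorted mutant cells can be followed into whatever state they take. The number 2 is not paired with a cell type in the tables, and gene expression was not analysed here. The cluster is therefore called by its number, its identity could not be checked against marker genes, and the genotype labels could not be checked against npas4l itself.

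The deposited values describe each cell by its captured transcripts and by its place on an RNA velocity map. UMIs (unique molecular identifiers) count the transcripts captured from a cell. RNA velocity sets unspliced, newly made transcripts against spliced ones and estimates from them the direction in which a cell is changing. In the usual form of the method, the end point score of a cell tells how strongly estimated transitions between cells gather at it when they are followed forwards, and the root cell score tells the same when they are followed backwards. Velocity pseudotime orders all cells from start to end, and self-transition scores how far a cell is estimated to stay in place. These 4 scores come from one velocity map, so a difference in one of them between cells chosen on another is a description and not a separate finding.

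Cluster 2 was the main holder of cells with 40000 or more UMIs in the mutant library and a minor one in the heterozygous library. Its share of cells was 27.9% in the mutant library (26.7% to 29.2%) and 6.59% in the heterozygous library (5.93% to 7.30%). Its cells carried 33.6% of the mutant library's 84294688 UMIs and 5.93% of the heterozygous library's 115131011 UMIs. Of the cells with 40000 or more UMIs, 75 of 103 mutant cells lay in cluster 2, or 72.8% (63.2% to 81.1%), against 20 of 304 heterozygous cells, or 6.58% (4.06% to 9.98%). The heterozygous value was close to the share of cluster 2 among all heterozygous cells, 6.59%. Cluster 1 held 277 of the 304 heterozygous cells, and 0 of its 147 mutant cells had 40000 or more UMIs. Within cluster 2 the intervals of the share of such cells overlapped, with 5.11% in the mutant library (4.04% to 6.36%) and 5.83% in the heterozygous library (3.60% to 8.86%). The ratio of shares of cluster 2 itself, mutant over heterozygous, was 4.24, with intervals apart, and depended on the cells in the denominator. It was 1.80 among cells outside cluster 1, and 0.942, near 1, among cells outside clusters 1 and 4. These 2 clusters were mostly heterozygous, with 3060 heterozygous and 147 mutant cells in cluster 1 and 1027 and 23 in cluster 4. Mostly mutant clusters stayed in the denominator, with 1447 mutant and 122 heterozygous cells in cluster 3 and 743 and 11 in cluster 6. The value of 0.942 thus holds for that choice of clusters alone. Among cells with at least 17036.5 UMIs, the median of cluster 2, the ratio of shares was 7.87. No interval was computed for these alternatives, so the value of 0.942 does not establish a reversal.

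The 1812 cells formed one group at both resolutions of the authors' clustering, since all of them, and no other cell, made up fine cluster 2. Barcodes occurring in both libraries numbered 5 in the series. For 2 of these, both cells lay in cluster 2, and none of these 4 cells had an end point score of 0.9 or more.

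In cluster 2 the intervals of the median lay apart between the genotypes for mitochondrial transcripts and for pseudotime, and overlapped for the other 6 measures compared. Mutant cells had a median of 16946 UMIs (16670 to 17236), with quartiles of 14109 and 20520, and heterozygous cells had a median of 17455 UMIs (16989 to 18023). Genes per cell stood at a median of 2925 in the mutant library (2904 to 2950) and 2963 in the heterozygous library (2924 to 3011). The share of unspliced among spliced plus unspliced UMIs was 7.07% in the median mutant cell (6.98% to 7.16%) and 7.36% in the median heterozygous cell (7.15% to 7.67%). For UMIs the ratio of medians, mutant over heterozygous, was 0.971 with bounds of 0.925 and 1.01, and for genes it was 0.987 with bounds of 0.964 and 1.01.

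Transcripts of the mitochondrial genome, a common gauge of cell condition, were higher in mutant cells of cluster 2 by 0.426 percentage points at the median, with bounds of 0.310 and 0.520. They made up 1.89% of UMIs in the median mutant cell (1.83% to 1.91%) and 1.46% in the median heterozygous cell (1.39% to 1.52%). The spread among cells was wider than this difference, with quartiles of 1.51% and 2.34% in mutant cells and 1.11% and 1.94% in heterozygous cells. The median was also higher in mutant than in heterozygous cells in every other coarse cluster, so the direction was not particular to cluster 2. It was 1.65% against 1.25% in cluster 3 and 1.83% against 1.41% in cluster 8. The medians were 1.46% against 0.776% in cluster 1, and 1.49% against 1.41% in cluster 4, which held 23 mutant cells. The droplet lane changed together with genotype, and its part cannot be told apart.

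Velocity pseudotime runs from 0 to 1 over all cells of the series, and most of cluster 2 lay within a short stretch of it. The interquartile range of pseudotime was 0.0103 over the cells of cluster 2, against 0.0177 in cluster 3 and 0.107 in cluster 8. Cluster 5 had a like range, 0.0106, and cluster 1 a shorter one, 0.00277. The median was 0.440 in mutant cells (0.439 to 0.440) and 0.438 in heterozygous cells (0.437 to 0.439). The intervals lay apart by less than the spread among cells. A pseudotime under 0.4 was given to 2 cells of the cluster, both heterozygous. Self-transition was low, with medians of 0.137 in mutant cells (0.128 to 0.150) and 0.163 in heterozygous cells (0.142 to 0.183). It was exactly 0 in 144 mutant cells, or 9.80%, and in 28 heterozygous cells, or 8.16%.

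Compared with cluster 3, cluster 2 held cells with more UMIs but no more genes. Cluster 3 is the next in number of cells and the closest in unspliced share when both libraries are pooled. In mutant cells alone cluster 1 was closer in unspliced share, at 7.02% against 7.07% in cluster 2. In heterozygous cells alone cluster 3 was still the closest, but it was not the next in number, with 122 cells against 264 in cluster 5. In mutant cells the median UMIs were 16946 in cluster 2 and 14392 in cluster 3, a ratio of 1.18, while the median genes were 2925 in cluster 2 and 3047 in cluster 3. In heterozygous cells the UMIs were 17455 in cluster 2 and 14906 in cluster 3, a ratio of 1.17, and the genes were 2963 in cluster 2 and 3008 in cluster 3, with overlapping intervals. Root cell scores were lower in cluster 2 in both libraries. The medians were 0.00596 in mutant cells of cluster 2 and 0.0502 in mutant cells of cluster 3, and 0.00511 in heterozygous cells of cluster 2 and 0.0544 in heterozygous cells of cluster 3. The clusters were defined from the same cells, so these values describe them and carry no test.

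End point scores were near 0 in most cells of cluster 2, with smaller numbers of cells spread over the middle and at the top of the scale. Over both libraries the middle, from 0.1 to under 0.9, held 152 cells and the top, 0.9 or more, held 100. Scores under 0.0001 were given to 1079 mutant cells, or 73.5% (71.1% to 75.7%), and to 253 heterozygous cells, or 73.8% (68.8% to 78.3%). Scores between 0.1 and 0.9 were given to 127 mutant cells, or 8.65% (7.26% to 10.2%), and to 25 heterozygous cells, or 7.29% (4.77% to 10.6%). Scores of 0.9 or more were given to 82 mutant cells, or 5.58% (4.46% to 6.88%), and to 18 heterozygous cells, or 5.25% (3.14% to 8.17%). The genotypes therefore overlapped in all 3 classes. The ratio of the high-scoring shares, mutant over heterozygous, was 1.06, with bounds of 0.547 and 2.19. These wide bounds hold a ratio of 1 as well as differences of up to about that size in either direction.

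The limit of 0.9 falls in a gap of the scores. The nearest cells below it scored 0.877, 0.889 and 0.891, and the nearest above it scored 0.925, 0.935 and 0.938. Most of the high-scoring cells sat exactly at the maximum of 1, namely 71 of 82 mutant and 17 of 18 heterozygous cells. Cells with a score of 0.9 or more occurred in clusters 2 and 8 alone. Cluster 2 supplied 82 of the 160 such mutant cells, or 51.3% (43.2% to 59.2%), and 18 of the 84 such heterozygous cells, or 21.4% (13.2% to 31.7%). These shares also depend on the sizes of the 2 clusters. Clusters 2 and 8 held 1469 and 304 mutant cells, but 343 and 195 heterozygous cells. None of the 1447 mutant cells of cluster 3 reached the limit, with an exact upper bound of 0.255% on the share. None of its 122 heterozygous cells did, with an upper bound of 2.98%.

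High-scoring cells of cluster 2 had more than 2-fold the UMIs of the rest of the cluster in each library. In the mutant library they had a median of 36646.5 UMIs (28298 to 41923), against 16670 UMIs in the rest (16365 to 16930), a ratio of 2.20 with bounds of 1.67 and 2.56. In the heterozygous library they had a median of 45903 UMIs (35030 to 53395), against 17225 UMIs in the rest (16789 to 17683), a ratio of 2.66 with bounds of 1.98 and 3.18. The distributions still overlapped, since high-scoring mutant cells ranged from 7476 to 90701 UMIs and the other mutant cells from 5313 to 70171 UMIs. With 5.58% of the mutant cells of the cluster, the high-scoring cells carried 10.9% of its UMIs, and with 5.25% of the heterozygous cells they carried 11.7%. The ratio over both libraries, 2.34, was 1.37 once the 5% of cells with the most UMIs had been removed from each library, a step that took away 60 of the 100 high-scoring cells. How doublets were treated before deposit is not given in the sources used here, and their part in the high UMIs was not tested.

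**Figure D1:**
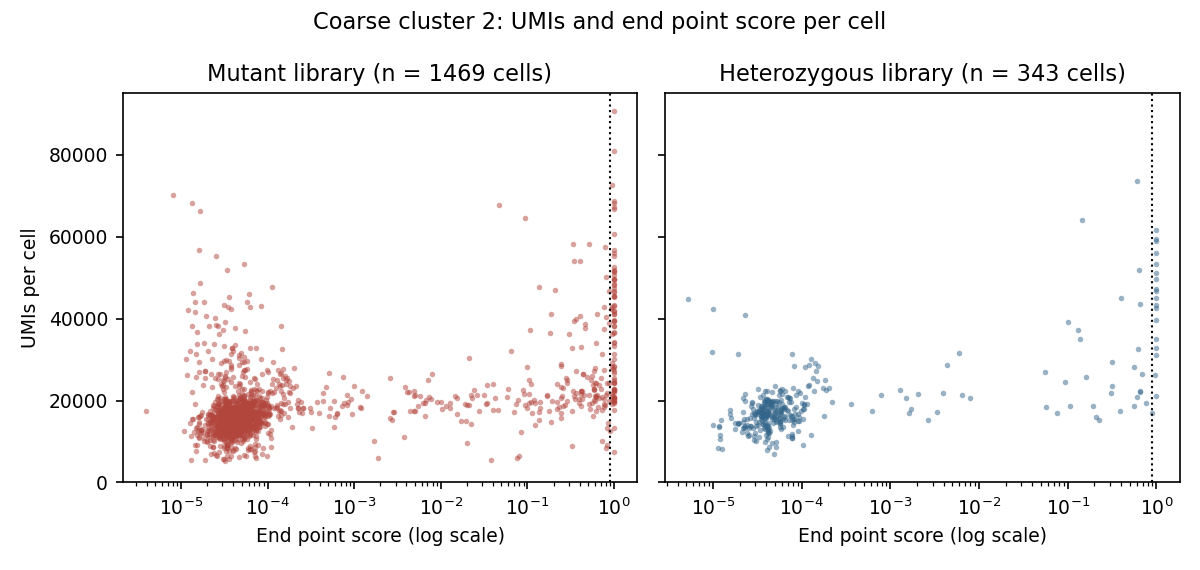
UMIs per cell against the end point score (log scale) for each cell of coarse cluster 2, with the mutant library (1469 cells) on the left, the heterozygous library (343 cells) on the right and a dotted line at a score of 0.9. Most cells lie at scores under 0.0001 (73.5% of mutant and 73.8% of heterozygous cells), where the median is 15816 UMIs in mutant cells, and cells with 29025 or more UMIs occur along the whole scale, 65 of the 182 at scores of 0.9 or more and 68 under 0.0001.

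UMIs differed most between the top class of the score and the class below it. Mutant cells with scores under 0.0001 had a median of 15816 UMIs, those from 0.0001 to 0.01 had 19418, those from 0.01 to 0.1 had 19207.5, those from 0.1 to 0.5 had 21609, those from 0.5 to 0.9 had 21544.5 and those of 0.9 or more had 36646.5. Heterozygous cells had 16450, 21279, 24580, 23661, 24393.5 and 45903 UMIs in the same classes, the third of which held 5 cells. Below the top class the medians did not rise steadily from class to class. The step from the class just below the limit to the class above it was thus larger than the whole range below it in both libraries. Over all 1812 cells the rank correlation of UMIs with the end point score was 0.439, and it was 0.422 in mutant and 0.514 in heterozygous cells. Each such value is a description across cells that share a library and a velocity map.

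Read the other way, a high score was rare in cells of up to 19637 UMIs and frequent in cells of 29025 UMIs or more. The cells of both libraries were divided into 10 equal parts by UMIs. The 7 parts with the fewest UMIs held 5 high-scoring cells among 1036 mutant cells, or 0.483% (0.157% to 1.12%). They held none among 232 heterozygous cells, with an exact upper bound of 1.58% on the share. The eighth and ninth parts held 28 among 286 mutant cells, or 9.79% (6.60% to 13.8%), and 2 among 76 heterozygous cells, or 2.63% (0.320% to 9.18%). The part with the most UMIs, 29025 and above, held 49 among 147 mutant cells, or 33.3% (25.8% to 41.6%), and 16 among 35 heterozygous cells, or 45.7% (28.8% to 63.4%). The intervals of the genotypes overlapped in each of these sets of parts, which were joined after the values were seen.

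**Figure D2:**
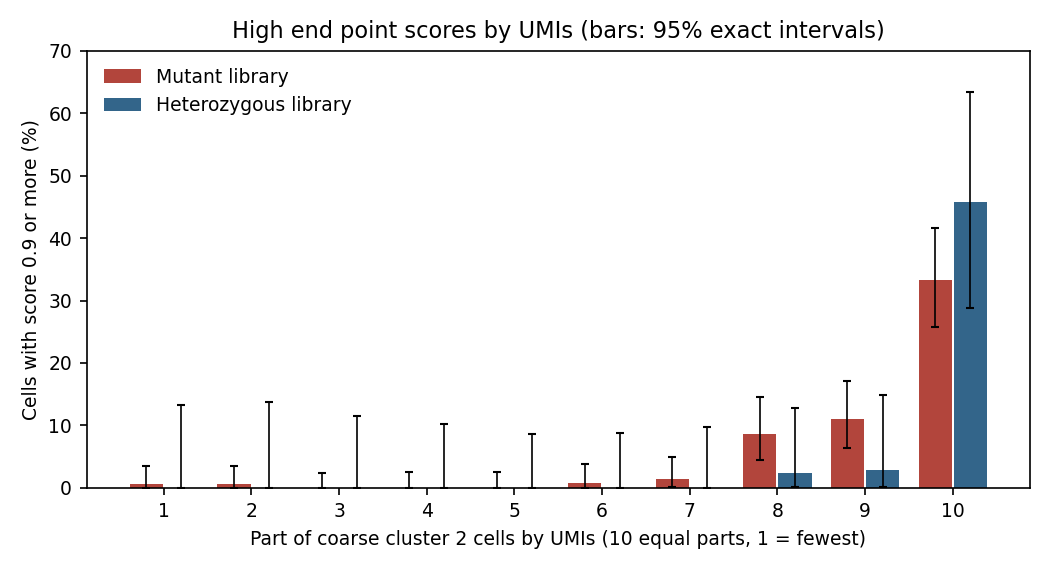
Percent of cells with an end point score of 0.9 or more in each of 10 equal parts of the coarse cluster 2 cells ordered by UMIs, for the mutant library (left bar of each pair) and the heterozygous library (right bar), with exact 95% intervals. The share stays at 1.38% or below in parts 1 to 7 and reaches 33.3% of mutant and 45.7% of heterozygous cells in part 10.

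High-scoring cells also had more genes than the rest, but fewer than other cells of the cluster with as many UMIs. In the mutant library the medians were 3841.5 genes in high-scoring cells (3465 to 4056) and 2907 in the rest (2883 to 2929). In the heterozygous library they were 4175 genes (3643 to 4501) in high-scoring cells and 2947 in the rest (2905 to 2980). With the rest weighted to the same UMIs, the order turned in both libraries. High-scoring mutant cells had 3841.5 genes against 4273 in the matched rest, and high-scoring heterozygous cells had 4175 against 4608, where 63 rest cells lay in the range. The matching left the heterozygous medians of UMIs unequal, at 45903 in high-scoring cells and 39083 in the matched rest, in the direction that would add genes to the high-scoring cells.

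Cell by cell the relation was nearly uniform. Set against the 20 other cells of the cluster nearest in UMIs, 81 of the 82 high-scoring mutant cells and all 18 high-scoring heterozygous cells had fewer genes than the median of those neighbours. The median ratio of genes to that of the neighbours was 0.873 in mutant and 0.828 in heterozygous cells. This count was made after the values had been seen. Both the score and the number of genes derive from the same transcripts, so the relation is a description of the subset.

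**Figure D3:**
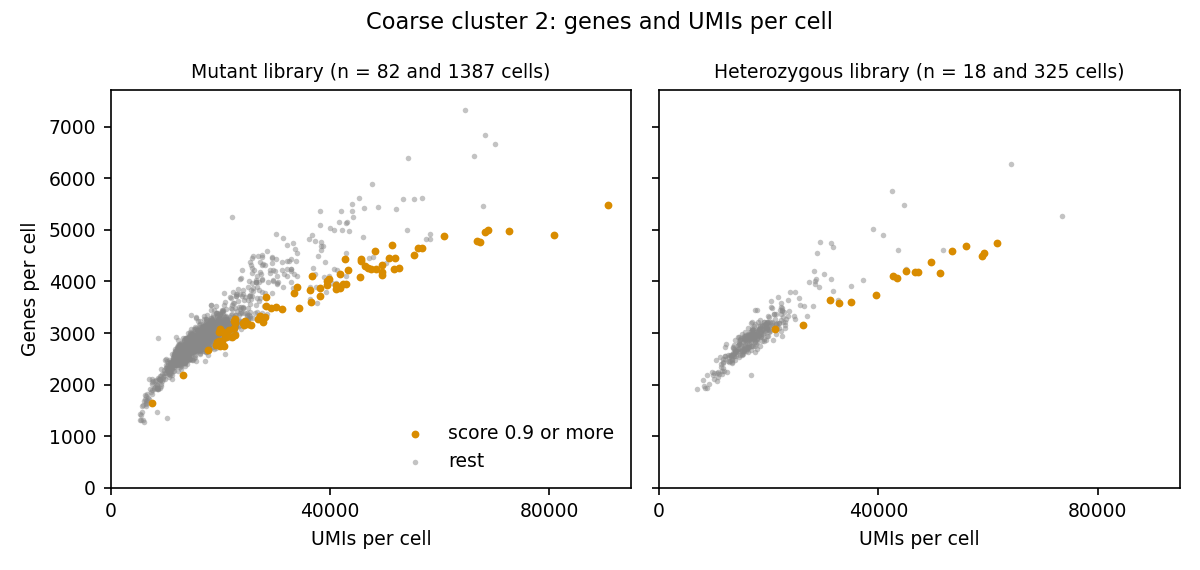
Genes per cell against UMIs per cell in coarse cluster 2, with the mutant library on the left and the heterozygous library on the right, and with cells scoring 0.9 or more in orange and the rest in grey. The orange cells run along the lower edge of the grey ones. In 81 of 82 mutant and in all 18 heterozygous cells, genes were fewer than the median of the 20 grey cells of both libraries nearest in UMIs.

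Cells of cluster 2 with the most UMIs, 29025 and above, were found in all classes of the score. In the mutant library 49 of them scored 0.9 or more, 28 scored from 0.1 to under 0.9, 8 from 0.0001 to under 0.1 and 62 under 0.0001. In the heterozygous library the numbers in the same classes were 16, 9, 4 and 6. The 62 mutant cells with scores under 0.0001 had a median of 36861 UMIs and 4734 genes, with quartiles of 4249.25 and 5149.75 genes. The 49 high-scoring mutant cells of that part had more UMIs, 45637, and fewer genes, 4234, with quartiles of 3922 and 4518. The low number of genes was not particular to them, since the 28 mutant cells scoring from 0.1 to under 0.9 had 40131.5 UMIs and 4155 genes, with quartiles of 3947.5 and 4465. In the heterozygous library the 16 high-scoring cells had 46952.5 UMIs and 4187.5 genes, the 9 cells from 0.1 to under 0.9 had 43543 UMIs and 4608 genes, and the 6 cells scoring under 0.0001 had 36342.5 UMIs and 4825 genes. Over both libraries the median genes of that part were 4208 in high-scoring cells (4101 to 4320) and 4480 in the others (4359 to 4714), with intervals apart. Within each library the intervals overlapped. They were 4056 to 4404 in high-scoring mutant cells and 4355 to 4754 in the other mutant cells. In heterozygous cells they were 3730 to 4548 and 4019 to 5016. The root cell score differed between the outer classes, with a median of 0.000377 in the high-scoring and 0.0286 in the lowest-scoring mutant cells of that part. The 28 mutant cells scoring from 0.1 to under 0.9 lay close to the high-scoring cells, with a median of 0.000603.

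For mitochondrial and unspliced transcripts, the intervals of high-scoring cells and the rest overlapped in each library. The mitochondrial share of UMIs was 1.86% in the median high-scoring mutant cell (1.78% to 2.07%) and 1.89% in the rest of the mutant cells (1.83% to 1.92%). The values were 1.69% in high-scoring heterozygous cells (1.11% to 2.47%) and 1.45% in the rest (1.39% to 1.52%). Unspliced UMIs made up 6.63% in high-scoring mutant cells (6.13% to 7.09%) and 7.09% in the rest (6.99% to 7.19%). In the heterozygous library they made up 6.84% in high-scoring cells (6.14% to 7.82%) and 7.42% in the rest (7.18% to 7.69%). With the rest weighted to the same UMIs, the mitochondrial medians stood further apart, and in mutant cells their order turned. They were 1.86% in high-scoring mutant cells and 1.67% in the matched rest, and 1.69% in high-scoring heterozygous cells and 1.05% in the matched rest. The weighted unspliced difference was -0.636 percentage points in mutant cells, against -0.459 without weights. In heterozygous cells it was -0.447, against -0.582 without weights, and over both libraries it was -0.631. No interval was computed for the weighted medians. Over both libraries, without weights, the unspliced difference was -0.442 percentage points with bounds of -0.982 and 0.0384. These bounds hold 0 as well as a difference of nearly 1 percentage point.

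The velocity scores placed the high-scoring cells late within the pseudotime of cluster 2, but not at its end. Over both libraries the highest pseudotime was 0.468 in high-scoring cells and 0.492 in the rest, whose 95th percentile was 0.453. Their median pseudotime was 0.451 in mutant cells (0.450 to 0.452), against 0.439 in the rest (0.438 to 0.440), and 0.450 in heterozygous cells (0.447 to 0.451), against 0.438 in the rest (0.436 to 0.438). The lowest pseudotime of any high-scoring cell, 0.445, was above the upper quartile of the rest, 0.443. With the rest weighted to the same UMIs the difference was smaller, with 0.451 in high-scoring mutant cells against 0.444 in the matched rest and 0.450 in high-scoring heterozygous cells against 0.442. Over both libraries it was 0.0119 without and 0.00755 with this weighting. Pseudotime did not rise steadily with the score. Cells with scores from 0.0001 to 0.01 were widely spread, with quartiles of 0.428 and 0.440 in mutant and 0.428 and 0.452 in heterozygous cells. The upper quartile of the heterozygous cells was thus above the median of high-scoring heterozygous cells. In mutant cells that class had the lowest median, 0.430, below the 0.439 of cells scoring less. Heterozygous cells had medians of 0.429 and 0.438 in the same 2 classes. Self-transition followed a like course and was highest in high-scoring cells, with a median of 0.478 in mutant cells (0.443 to 0.537) against 0.128 in the rest (0.122 to 0.136), and of 0.565 in heterozygous cells (0.519 to 0.580) against 0.155 in the rest (0.128 to 0.174). Root cell scores were lowest in them, at 0.000410 in mutant cells against 0.00637 in the rest, and at 0.000297 in heterozygous cells against 0.00557 in the rest. Over both libraries the root score difference of -0.00577 was -0.00316 among cells with at least 17036.5 UMIs and -0.00385 when matched on UMIs.

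**Figure D4:**
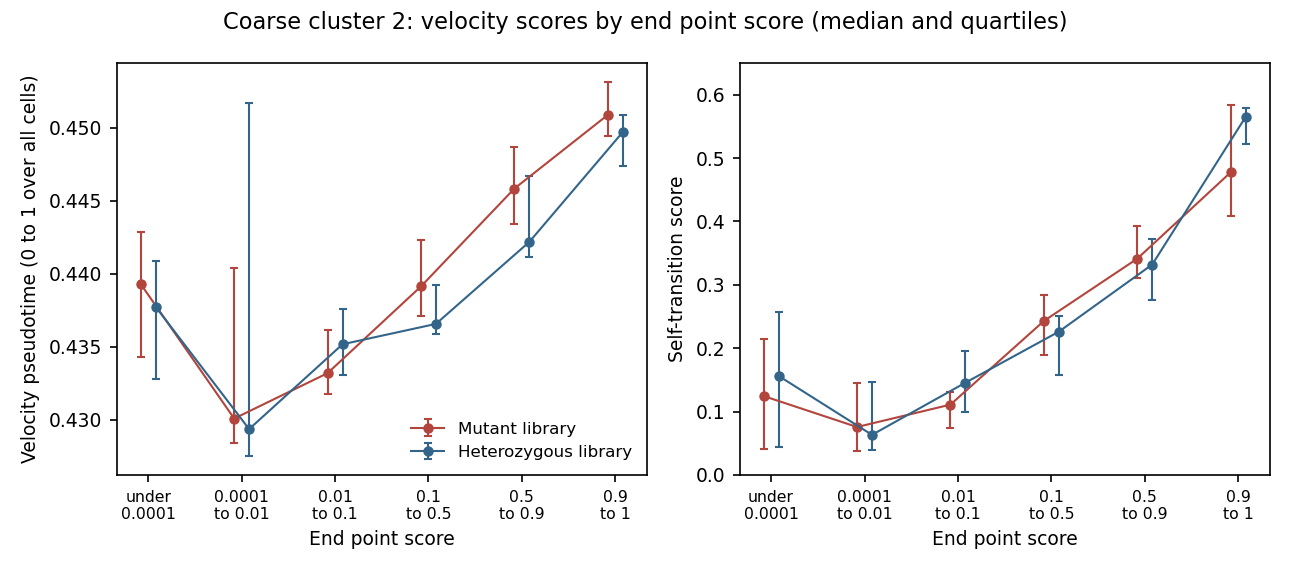
Velocity pseudotime (left) and self-transition (right) of coarse cluster 2 cells in 6 classes of end point score, as medians with quartiles, for the mutant and the heterozygous library. The medians of both measures dip in the class from 0.0001 to 0.01, where median pseudotime is 0.430 in mutant and 0.429 in heterozygous cells. The upper quartile of pseudotime in that class is 0.452 in heterozygous cells. Both medians are highest in the class of 0.9 or more, where pseudotime is 0.451 and 0.450.

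Between genotypes, the intervals of the high-scoring cells of cluster 2 overlapped in each of the measures compared. Their median UMIs stood in a ratio of 0.798, mutant over heterozygous, with bounds of 0.530 and 1.20, and their median genes in a ratio of 0.920 with bounds of 0.770 and 1.11. Self-transition came closest to a difference, at 0.478 in mutant and 0.565 in heterozygous cells, where the intervals (0.443 to 0.537 and 0.519 to 0.580) overlapped by little. The mitochondrial difference seen in the whole cluster was 0.432 percentage points in the rest of it, mutant minus heterozygous, with bounds of 0.312 and 0.524. In the high-scoring cells it was 0.172 with bounds of -0.691 and 0.956. With 18 heterozygous cells these bounds do not separate the subset from the rest.

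High-scoring cells of cluster 2 and those of cluster 8, the other cluster that holds such cells, lay on opposite sides of the rest of their clusters in UMIs. In cluster 8 high-scoring mutant cells had a median of 12151 UMIs (11055 to 12867), against 15317.5 in the rest (14515 to 16018), a ratio of 0.793. High-scoring heterozygous cells of cluster 8 had 12072.5 UMIs (11036 to 13408), against 15561 in the rest (14283 to 16973), a ratio of 0.776. The rank correlation of UMIs with the end point score was 0.439 over the 1812 cells of cluster 2 and -0.477 over the 499 cells of cluster 8. Pseudotime and end point score were nearly interchangeable in cluster 8, with a rank correlation of 0.959, while in cluster 2 the rank correlation was -0.0195. High scores were also much less frequent in cluster 2, with 5.58% of mutant cells against 25.7% in cluster 8 (20.8% to 31.0%), and 5.25% of heterozygous cells against 33.8% in cluster 8 (27.2% to 41.0%).

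**Figure D5:**
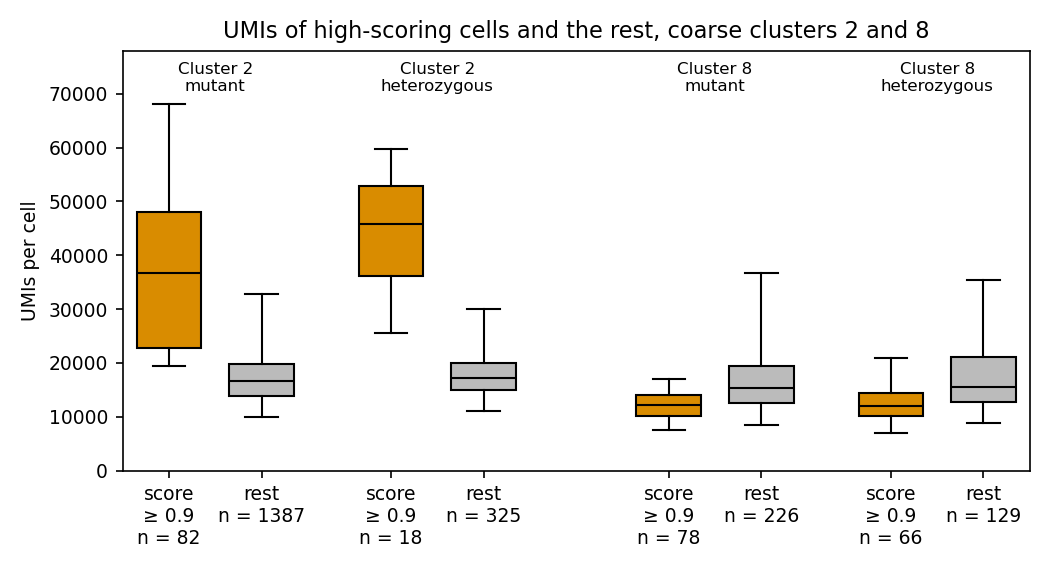
UMIs per cell in coarse clusters 2 and 8 for cells with an end point score of 0.9 or more (orange) and the rest (grey), per library, as boxes of quartiles with the median and whiskers at the 5th and 95th percentiles. In cluster 2 the high-scoring medians of 36646.5 UMIs (mutant) and 45903 UMIs (heterozygous) lie above the rest, and in cluster 8 those of 12151 and 12072.5 lie below it.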

How the data were processed

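Per the submitters' processing notes, STARsolo and Scanpy were used with the build danRer11; no source used here states versions, cell filters, cluster settings or the velocity tool. Both tables hold 1 row per cell, with its genotype. Per the file headers, the authors deposited genes per cell as counts, total UMIs on a natural log scale after adding 1, and mitochondrial transcripts as percent. They also deposited cluster numbers and velocity scores (end point, root cell, self-transition and pseudotime), per the file headers. The spliced and unspliced sizes are whole numbers and are read as UMIs.

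Totals were inverted and rounded, which moved them by at most 0.0614. All 10469 cells were matched between the tables by genotype and barcode, with identical cluster, genes, mitochondrial percent and UMIs. Libraries held 84294688 (mutant) and 115131011 (heterozygous) UMIs, with 5267 to 90701 UMIs per cell. The unspliced percent is unspliced over spliced plus unspliced UMIs.

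Shares carry exact (Clopper-Pearson) and medians exact order-statistic 95% intervals (scipy 1.17.1), checked on simulated data; bounds of ratios and differences take opposite ends of these intervals. Matching on UMIs weighted the rest to the high-scoring cells in 10 bins. A cluster's share was to be called different at a ratio of at least 2 with intervals apart. Named items were the fine clusters with at least 20 cells in cluster 2, and clusters 3 and 8. No genes could be named. The members, the limit of 0.9 and the alternatives were chosen with earlier results of these data known; score classes, the limit of 40000 UMIs and the comparison with 20 neighbours were set after seeing the values.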

Additional observations from a re-analysis of the deposited data

Results flagged for a closer look

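The UMIs of high-scoring cells relative to the rest went in opposite directions in 2 clusters, in each library. The ratio of median UMIs, cells with an end point score of 0.9 or more over the rest, was 2.20 in mutant and 2.66 in heterozygous cells of cluster 2, and 0.793 in mutant and 0.776 in heterozygous cells of cluster 8. The difference between the clusters was not tested, since each genotype has 1 library.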

How the results depend on the processing

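The ratio of shares of cluster 2, mutant over heterozygous, was 4.24. It was 7.87 with the UMI minimum, 1.80 without cluster 1 and 0.942, reversed, without clusters 1 and 4, the last 2 by the change of denominator; the cause of the first was not tested. The other 4 alternatives stayed within the interval. The ratio of high-scoring shares stayed within its bounds in all 6 alternatives, from 0.975 with a score limit of 0.99 to 1.38 without the 5% of cells with the most UMIs. The ratio of UMIs of high-scoring cells to the rest, 2.34, was 2.66 with the mitochondrial maximum, 1.37 without the 5% of cells with the most UMIs, 1.68 with a score limit of 0.5 and 2.66 in heterozygous cells only. Matched on UMIs it was 0.9902, near 1 by construction. The ratio of genes, 1.33, was 1.42, 1.08 and 1.20 with the first 3 of these settings and 0.884, reversed, when matched on UMIs. Among the velocity scores of high-scoring cells against the rest, the pseudotime difference of 0.0119 was 0.00755 when matched on UMIs, the root score difference of -0.00577 lay between -0.0159 (means) and -0.00316 (UMI minimum), and the self-transition difference of 0.388 was 0.290 with a score limit of 0.5. The cause of the shift with the mitochondrial maximum was not tested, and removing the cells with the most UMIs leaves 40 of the 100 high-scoring cells. The mitochondrial difference between the genotypes, 0.426 percentage points, was 0.204 with the mitochondrial maximum of 1.80%, which cuts that measure itself. Removing cells whose barcode occurs in both libraries, chosen after seeing the data, kept each value within the interval of the reported one. No library could be left out, since each genotype has 1. No paired analysis was possible because each genotype has 1 library and the labels give no replicate numbers. The 18 high-scoring heterozygous cells limit every comparison within that subset.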

Other observations

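Unspliced shares in cluster 2 had a few extremes. They were under 2% in 7 cells and over 20% in 2 cells, the highest being 45.0%, in a mutant cell, against a cluster median of 7.11%. One heterozygous cell of the lowest kind, with 0.477% unspliced UMIs, had an end point score of 0.891 and was the cell closest below the limit of 0.9. Its self-transition of 0.611 was above the upper quartile of the high-scoring cells, 0.583, while its 16839 UMIs and pseudotime of 0.437 were close to the medians of the rest.

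One of the barcodes shared by the libraries belonged to a pair of cells of cluster 2 with very many UMIs. The mutant cell had 68321 UMIs, 6840 genes and an end point score of 1.34e-05, and the heterozygous cell had 73516 UMIs, 5275 genes and a score of 0.600.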
